A study of Mus musculus with 72 samples.

Results

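Arc, Npas4, Homer1, Bdnf, Nptx2 and Btg2 are 6 genes whose transcripts are known to rise when neurons are active, and most of their products act at or on synapses. They were picked by symbol, as 6 of the 39179 Ensembl gene IDs of a count table and an FPKM table (fragments mapped per library total and per length of transcript) from the brains of female C57BL/6J mice. The tissue came from PC14 and PC16 dams (days 14 and 16 after conception), from PP1, PP3 and PP10 dams (days 1, 3 and 10 after birth) and from virgin females, with 3 mice per stage. Each of the 18 mice gave a hypothalamus, a hippocampus, a neocortex and a cerebellum, so the comparison has 72 libraries of RNA from single animals. All dams had been nulliparous and were bred to males of the same strain, and the virgins were matched to them in age and cycled at random, so their oestrous state was not controlled. The day of the vaginal plug was counted as day 1 in the sample records and as day 0 in the study's methods, so PC14 and PC16 may be off by a day. The age at dissection was not given in the sources used here. The 3 virgins carry the letters B, M and O in their labels, and they stand in every comparison with virgins below, so those comparisons are not independent of each other.

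The 6 genes belong to different layers of the response of a neuron to its own firing. Calcium that enters through glutamate receptors and voltage-gated channels drives kinases, and these switch on waiting factors such as CREB at the promoters of early-response genes. Npas4 is such a gene and encodes a transcription factor of neurons, while Btg2 encodes a small protein that recruits the CCR4-NOT deadenylase complex to messenger RNA and restrains proliferation. The other members are effectors. Arc drives the removal of AMPA-type glutamate receptors from the postsynaptic membrane, Homer1 is a scaffold that ties glutamate receptors to Shank proteins and IP3 receptors, BDNF is a secreted neurotrophin that signals through TrkB, and Nptx2 is a secreted pentraxin that clusters AMPA receptors.

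The promoters of 4 members were searched for the element that CREB binds. The members were picked as genes that rise with the activity of neurons, and CREB is a factor of that response. A match is therefore not independent of the choice of genes. RefSeq start sites on GRCm38.p6 gave 11 windows of 300 bases (250 before and 50 after the start) for 4 members, namely Npas4, Homer1, Bdnf and Btg2. The motif TGACGT, the core of the cAMP response element TGACGTCA that CREB binds, was searched on both strands (ACGTCA on the other), with an overlapping match in both directions counted as 1 site. It was found in 4 of the 11 windows, 1 in each of the 4 members, against 7.51% of all 32851 windows of the same length. That share is per window, and a gene with several windows, such as Bdnf, has more occasions for a match. These 4 windows are printed 5′ to 3′ on the strand of the gene with the motif in capitals.
Npas4 (chr19:4989922-4990221, minus strand): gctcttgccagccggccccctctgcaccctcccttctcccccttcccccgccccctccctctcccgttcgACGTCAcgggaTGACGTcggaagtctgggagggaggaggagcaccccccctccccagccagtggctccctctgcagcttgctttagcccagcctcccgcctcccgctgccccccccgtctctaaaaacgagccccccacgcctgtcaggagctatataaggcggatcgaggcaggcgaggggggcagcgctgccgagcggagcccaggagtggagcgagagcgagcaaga
Homer1 (chr13:93303507-93303806, plus strand): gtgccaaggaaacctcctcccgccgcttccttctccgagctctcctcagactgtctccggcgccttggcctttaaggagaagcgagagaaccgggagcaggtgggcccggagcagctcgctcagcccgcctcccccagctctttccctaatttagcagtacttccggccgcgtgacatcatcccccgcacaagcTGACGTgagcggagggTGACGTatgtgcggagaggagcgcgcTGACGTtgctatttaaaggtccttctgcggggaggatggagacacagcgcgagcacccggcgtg
Bdnf (chr2:109692186-109692485, plus strand): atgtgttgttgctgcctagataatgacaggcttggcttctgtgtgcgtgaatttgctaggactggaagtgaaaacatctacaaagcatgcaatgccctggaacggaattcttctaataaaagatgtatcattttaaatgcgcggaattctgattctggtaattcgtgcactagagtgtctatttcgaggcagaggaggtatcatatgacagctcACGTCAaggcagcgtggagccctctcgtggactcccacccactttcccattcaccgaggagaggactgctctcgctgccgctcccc
Btg2 (chr1:134079106-134079405, minus strand): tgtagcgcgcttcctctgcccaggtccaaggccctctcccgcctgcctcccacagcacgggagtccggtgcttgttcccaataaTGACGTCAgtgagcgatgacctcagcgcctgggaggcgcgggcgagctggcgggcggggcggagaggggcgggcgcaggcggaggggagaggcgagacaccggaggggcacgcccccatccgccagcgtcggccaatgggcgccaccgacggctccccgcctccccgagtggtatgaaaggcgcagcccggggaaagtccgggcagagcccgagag
Homer1 held 3 sites, at 56, 40 and 14 bases before the start, which 0.0183% of all windows also reached. Npas4 held 2 sites at 180 and 169 bases before the start, and 0.554% of all windows held as many or more. Bdnf held 1 site at 36 bases before the start in 1 of its several windows, and Btg2 held the full element at 166 bases before the start, as 1.79% of all windows did. The CArG box, the element of serum response factor, was in 0 of the 11 windows and in 1.63% of all windows. These are matches of letters, and binding was not measured.

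On GRCm38 in GENCODE M21, Arc lies on chromosome 15, 74669083 to 74672570 on the minus strand, Npas4 on chromosome 19, 4984355 to 4990316 on the minus strand, and Btg2 on chromosome 1, 134075170 to 134079120 on the minus strand. Homer1 lies on chromosome 13, 93299635 to 93405129 on the plus strand, Bdnf on chromosome 2, 109674700 to 109727007 on the plus strand, and Nptx2 on chromosome 5, 144545902 to 144557478 on the plus strand. The counts are 1 value per gene, so the short activity-induced Homer1 transcript and the long constitutive ones are summed, and so are the transcripts from the several Bdnf promoters. The library kit did not keep the strand, so reads from the antisense gene Gm45346 within Bdnf could not be told apart from Bdnf reads. Total counts were 8875029 to 14208864 per library, with a median of 12234110. Members had from 9 counts for Nptx2 in the cerebellum to 12041 counts for Arc in the neocortex.

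The dissections carried the markers of their regions. Of the markers listed for each region, 7 of 7 in the hypothalamus, 4 of 4 in the hippocampus, 3 of 4 in the neocortex and 5 of 5 in the cerebellum were higher in all 18 libraries of that region than in every other library, the exception being Rorb. Gal was at 0 in every neocortex library, and Gabra6 was at 0 in every hypothalamus and neocortex library. Some marker lists moved with the dams. The CPM sums given are over every gene of a list, whether called or not. For scale, the test of dams against virgins below called 6.99% of all genes in the neocortex and 6.14% in the hippocampus. It called 4.74% in the hypothalamus and 29.5% in the cerebellum. Blood genes were higher in dams for 4 of 5 genes in the neocortex, where their sum was 151 to 859 CPM in dams, median 397 CPM, against 141 to 186 CPM in virgins, median 152 CPM, and for 3 of 5 in the hippocampus, where it was 137 to 728 CPM in dams, median 358 CPM, against 117 to 181 CPM in virgins, median 161 CPM. None of the blood genes passed in the hypothalamus, where the sum was 158 to 1403 CPM in dams, median 438 CPM, against 171 to 212 CPM in virgins, median 174 CPM, or in the cerebellum, where it was 198 to 1349 CPM in dams, median 628 CPM, against 295 to 383 CPM in virgins, median 310.3 CPM. In the neocortex 2 of its own 4 markers, Lamp5 and Tbr1, were higher in dams. All 4 markers together summed to 549 to 692 CPM in dams, median 631 CPM, against 539 to 578 CPM in virgins, median 575 CPM. Striatal genes were higher for 2 of 4 tested in the hypothalamus (94.0 to 113 CPM in dams, median 103 CPM, against 83.5 to 88.1 CPM in virgins, median 87.6 CPM), and choroid plexus genes in the hippocampus summed to 83.5 to 5617 CPM in dams, median 3297 CPM, against 349 to 1420.0 CPM in virgins, median 738 CPM, with none passing the test. Of the neuron markers, Rbfox3 and Snap25 were higher in dams, as 2 of 6 tested in the hypothalamus and 2 of 7 in the neocortex. All 7 neuron markers together summed to 1908 to 2276 CPM in dams, median 2044 CPM, against 1756 to 2071 CPM in virgins, median 2033 CPM, in the hypothalamus. In the neocortex they summed to 6407 to 6782 CPM in dams, median 6575 CPM, against 6234 to 6448 CPM in virgins, median 6347 CPM. In the cerebellum 2 of 4 astrocyte genes, Aqp4 and Gfap, were higher and 2 of 4 oligodendrocyte genes, Mbp and Mog, were lower. All 4 astrocyte genes there summed to 1269 to 1703 CPM in dams, median 1370.0 CPM, against 1065 to 1346 CPM in virgins, median 1128 CPM. All 4 oligodendrocyte genes there summed to 4570.0 to 5989.6 CPM in dams, median 5356 CPM, against 5612 to 5874 CPM in virgins, median 5634 CPM. Of 7 neuron markers there 2 were higher and 1 lower. Choroid plexus genes there had a median sum of 2178 CPM in dams and 3113 CPM in virgins, with none passing. In 3 regions an own marker was lower in dams: Pomc (1 of 7) in the hypothalamus, Prox1 (1 of 4) in the hippocampus and Pcp2 (1 of 5) in the cerebellum. From the other lists, Cldn5 and Lamp5 were higher in the hypothalamus, and Slc1a2 and Rorb were lower in the hippocampus. Ppp1r1b was higher and Cbln1 lower in the neocortex, and Flt1 was higher and Csf1r lower in the cerebellum. In bulk tissue fewer cells of a type and less RNA per cell cannot be told apart, and the part of these shifts in the results on the 6 genes was not tested.

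The members differed widely in level between regions. Because FPKM values are divided by transcript length, they also allow a comparison between genes, and the values here are means over the 18 libraries of a region with their SD (n = 18). Arc, the postsynaptic effector, had the highest level in the neocortex at 111 ± 71.1 FPKM, followed by 38.5 ± 18.9 FPKM in the hippocampus, 8.70 ± 0.680 FPKM in the cerebellum and 5.41 ± 0.591 FPKM in the hypothalamus. The scaffold gene Homer1 had the same order, with 62.6 ± 11.7 FPKM in the neocortex, 22.6 ± 2.62 FPKM in the hippocampus, 7.93 ± 1.59 FPKM in the cerebellum and 5.62 ± 0.574 FPKM in the hypothalamus. Nptx2 was the member of strongest regional restriction, with 36.5 ± 4.81 FPKM in the neocortex, 22.8 ± 2.70 FPKM in the hypothalamus and 12.1 ± 1.31 FPKM in the hippocampus but 0.573 ± 0.144 FPKM in the cerebellum, where it had 9 to 29 counts per library and missed the FPKM rule below. The secreted ligand Bdnf was flatter, at 9.09 ± 0.868 FPKM in the hippocampus, 8.50 ± 1.23 FPKM in the neocortex, 5.63 ± 0.721 FPKM in the hypothalamus and 3.59 ± 0.756 FPKM in the cerebellum. Btg2 was the flattest, at 6.07 ± 3.88 FPKM in the neocortex, 5.95 ± 0.878 FPKM in the cerebellum, 5.63 ± 1.29 FPKM in the hippocampus and 3.80 ± 0.820 FPKM in the hypothalamus. Npas4, the transcription factor, stood at 7.22 ± 4.30 FPKM in the neocortex, 2.67 ± 1.42 FPKM in the hippocampus, 2.22 ± 0.427 FPKM in the hypothalamus and 1.61 ± 0.759 FPKM in the cerebellum.

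Tests of these levels used the counts of all 72 libraries in edgeR's quasi-likelihood test, averaged over the 6 stages, with Benjamini-Hochberg adjustment over all genes and a threshold of 0.05. Regions of the brain differ in most genes, so a call here is common. Between neocortex and hippocampus 4 of 6 members passed (71.5% of all genes tested), between neocortex and hypothalamus 6 (86.1%), between neocortex and cerebellum 5 (86.2%), between hippocampus and hypothalamus 5 (84.6%), between hippocampus and cerebellum 5 (85.5%) and between hypothalamus and cerebellum 6 (88.3%). Arc was 20.5-fold higher in the neocortex than in the hypothalamus (log2 difference 4.36 ± 0.14, SE), Homer1 was 15.5-fold higher, and Nptx2 was 85.4-fold higher in the neocortex than in the cerebellum (log2 difference 6.42 ± 0.091). The 5 pairs of regions that did not differ beyond the spread were Bdnf between neocortex and hippocampus (edgeR adjusted p = 0.59), Btg2 between neocortex and hippocampus (0.87), between neocortex and cerebellum (0.73) and between hippocampus and cerebellum (0.86), and Npas4 between hippocampus and hypothalamus (0.084). Bdnf between neocortex and hippocampus became a call with limma on log2(FPKM + 1) (log2 difference -0.094, adjusted p = 0.044), and Npas4 between hippocampus and hypothalamus with the mouse as a replicate block (adjusted p = 0.047) and without PC14 replicate 1 (log2 difference 0.32, adjusted p = 0.033).

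**Figure D1:**
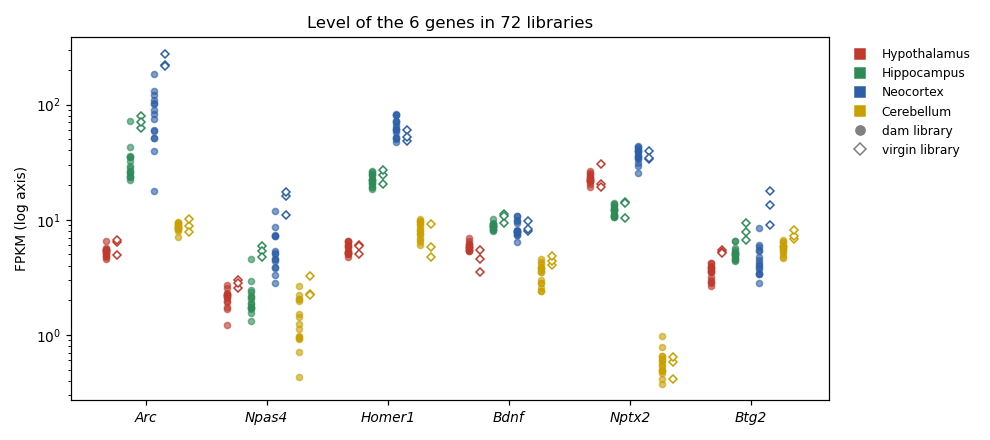
Deposited FPKM of each member in each library by brain region on a log axis, with dots for dam libraries and open diamonds for virgin libraries. Arc ran from 17.9 to 276 FPKM in the neocortex, and Nptx2 stayed between 0.377 and 0.975 FPKM in the cerebellum.

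Dams of all 5 stages were compared with virgins in each region by edgeR's quasi-likelihood test over its 18 libraries, with the mean of the 5 dam stages set against the virgins. A gene was tested where every mouse of some stage had 1 FPKM or more, a rule that all 6 members met in the hypothalamus, hippocampus and neocortex and 5 met in the cerebellum. Arc, Npas4 and Btg2 fell in dams in the neocortex, and the same genes with Bdnf fell in the hippocampus. In the cerebellum Npas4, Btg2 and Bdnf fell. In the hypothalamus Btg2 fell and Bdnf rose. The members called were thus 3 of 6 in the neocortex, where 6.99% of all genes tested were called, 4 of 6 in the hippocampus (6.14%), 2 of 6 in the hypothalamus (4.74%) and 3 of 5 in the cerebellum (29.5%). Taken by direction, the share of all genes that were lower in dams was 4.18% in the neocortex, 3.92% in the hippocampus, 1.61% in the hypothalamus and 15.6% in the cerebellum, and the share that was higher was 3.13% in the hypothalamus. The median log2 difference over all genes ran from -0.0049 in the hypothalamus to 0.0023 in the hippocampus. Btg2 was the only member called in all 4 regions, and its 15 dams lay below all 3 virgins in each of them. The share of all genes with such a separation is not given here, nor for the other members below.

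**Figure D2:**
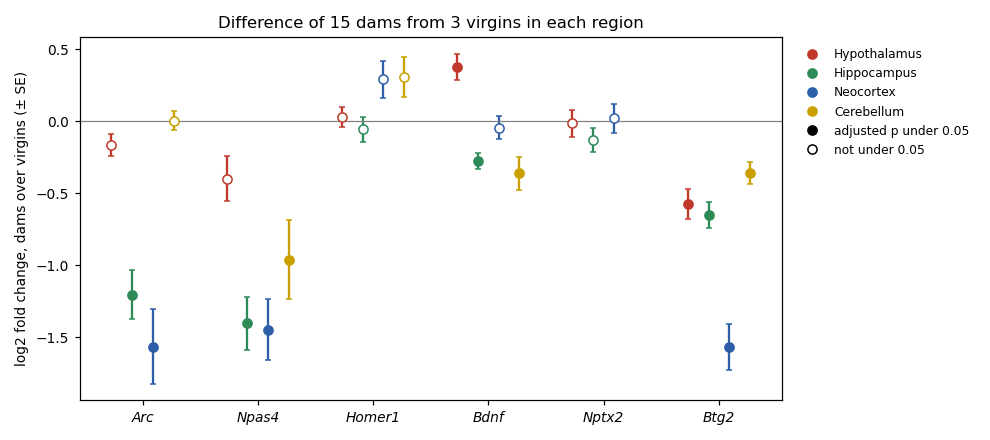
Log2 difference of dams over virgins (axis) for each member in each region, with bars of 1 SE from the edgeR fit and filled symbols where the adjusted p was under 0.05. The neocortex values of Arc (-1.57), Npas4 (-1.45) and Btg2 (-1.57) are the lowest there, and Bdnf in the hypothalamus (0.38) is the only filled symbol above 0.

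These differences rest on 3 virgin mice. Without virgins B and M together, which leaves 1 virgin per region that is assumed to vary like the other groups, the members called were 1 in the neocortex (Btg2, adjusted p = 0.040), 1 in the cerebellum (Btg2, 0.030), and 0 in the hippocampus and the hypothalamus, where at an unadjusted p under 0.05 there were 5 and 3 members. The log2 differences were then -1.20 for Arc, -1.23 for Npas4 and -0.41 for Btg2 in the hippocampus, against -1.21, -1.40 and -0.65 with all libraries. In the neocortex they were -1.43 for Arc, -1.01 for Npas4 and -1.004 for Btg2, against -1.57, -1.45 and -1.57. For Btg2 the difference was -0.52 against -0.57 in the hypothalamus and -0.53 against -0.36 in the cerebellum, while for Bdnf in the hypothalamus it was 0.12 against 0.38. The genes called over the whole table then numbered 169, 40, 70 and 20 in those regions, against 950, 4070, 856 and 682 with all libraries. Leaving out only virgin O raised the count of genes in the cerebellum to 7451, while leaving out B or M lowered it to 194 or 239. Among the 12 calls of members, 8 held whichever single library was left out, namely Btg2 in all 4 regions and Arc and Npas4 in the hippocampus and the neocortex.

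Npas4 encodes a transcription factor of the bHLH-PAS family that neurons make in response to calcium influx and that pairs with Arnt or Arnt2. In the neocortex it stood at 60.1, 65.6 and 41.1 CPM in virgins, 16.5, 44.5 and 27.2 CPM at PC14, 9.71, 20.1 and 26.7 CPM at PC16, 14.2, 13.4 and 16.2 CPM at PP1, 11.7, 19.1 and 32.5 CPM at PP3 and 27.2, 18.6 and 16.1 CPM at PP10. The 3 virgins were higher than 14 of the 15 dams, the exception being PC14 replicate 2, and the PP1 mice lay closest together. The log2 difference was -1.45 ± 0.21 (SE), a 2.73-fold lower level in dams, with an adjusted p of 0.00029 in edgeR's quasi-likelihood test. Hippocampal Npas4 stood at 23.1, 19.8 and 18.1 CPM in virgins, 4.99, 17.6 and 10.999 CPM at PC14, 8.25, 6.22 and 7.86 CPM at PC16, 6.39, 5.53 and 6.22 CPM at PP1, 5.61, 7.05 and 8.79 CPM at PP3 and 8.29, 7.54 and 6.54 CPM at PP10. All 15 dams lay below all 3 virgins, again with PC14 replicate 2 as the highest dam. There the log2 difference was -1.40 ± 0.18, or 2.65-fold lower in dams (edgeR adjusted p = 0.00032). In the cerebellum Npas4 ran from 1.45 to 9.76 CPM in dams, with a median of 4.70 CPM, against 12.0, 8.17 and 8.24 CPM in virgins. In all, 13 of the 15 dams were below all virgins, and the lowest values came from PC16 replicates 1 and 2. The log2 difference of -0.96 ± 0.27 passed (edgeR adjusted p = 0.016), but not without virgin B (adjusted p = 0.18) or virgin M (0.072). In the hypothalamus Npas4 ran from 4.20 to 10.1 CPM in dams, with a median of 8.29 CPM, against 9.24, 11.2 and 10.4 CPM in virgins, with 14 of 15 dams below all virgins. The log2 difference of -0.40 ± 0.16 there did not pass (edgeR adjusted p = 0.15).

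Btg2, an early-response gene that many cell types share and whose protein speeds the deadenylation of messenger RNA, was the member called in every region. In the neocortex it stood at 44.6, 59.0 and 30.2 CPM in virgins, 12.6, 28.3 and 18.2 CPM at PC14, 11.1, 15.9 and 18.0 CPM at PC16, 9.47, 12.6 and 12.9 CPM at PP1, 15.03, 20.05 and 19.5 CPM at PP3 and 11.6, 14.5 and 11.4 CPM at PP10. Every dam was below every virgin, although PC14 replicate 2 came close to virgin O. The log2 difference was -1.57 ± 0.16 (SE), a 2.97-fold lower level in dams, with an adjusted p of 5.8e-06 in edgeR's quasi-likelihood test. Hippocampal Btg2 stood at 27.0, 31.8 and 23.2 CPM in virgins, 16.3, 22.2 and 18.1 CPM at PC14, 17.7, 16.7 and 14.8 CPM at PC16, 15.3, 17.7 and 17.2 CPM at PP1, 17.3, 22.3 and 18.8 CPM at PP3 and 14.9, 17.3 and 15.5 CPM at PP10. No dam reached the lowest virgin there, with PP3 replicate 2 the nearest. That log2 difference was -0.65 ± 0.092, 1.57-fold lower in dams (edgeR adjusted p = 0.00059). In the hypothalamus Btg2 ran from 8.87 to 14.1 CPM in dams, with a median of 11.8 CPM, against 17.9, 17.5 and 16.8 CPM in virgins. The virgins were close together and above all dams, and the difference was -0.57 ± 0.10 on the log2 scale (edgeR adjusted p = 0.0047). In the cerebellum it ran from 16.2 to 22.4 CPM in dams, with a median of 19.7 CPM, against 22.6, 24.0 and 28.1 CPM in virgins. The gap between the groups was small there, with 22.4 CPM in the highest dam and 22.6 CPM in the lowest virgin, and the log2 difference of -0.36 ± 0.077 passed the test (edgeR adjusted p = 0.0048).

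Arc is copied into RNA within minutes of strong synaptic input, and its transcript travels into dendrites, where the protein promotes endocytosis of AMPA receptors. In the neocortex Arc stood at 1030.2, 829 and 809 CPM in virgins, 378, 685 and 490.0 CPM at PC14, 65.7, 148 and 449.9 CPM at PC16, 276, 407 and 329.6 CPM at PP1, 221, 308 and 219 CPM at PP3 and 192, 383 and 191 CPM at PP10. All 15 dams were below all 3 virgins, and the dams themselves differed by 10.4-fold, with PC16 replicate 1 lowest and PC14 replicate 2 highest. The log2 difference was -1.57 ± 0.26 (SE), a 2.96-fold lower level in dams, with an adjusted p of 0.00093 in edgeR's quasi-likelihood test. The hippocampus had 303, 237 and 267 CPM in virgins, 105, 270.4 and 159 CPM at PC14, 82.8, 99.03 and 131 CPM at PC16, 86.9, 122 and 128 CPM at PP1, 94.3, 109.7 and 87.3 CPM at PP3 and 96.5, 133 and 89.8 CPM at PP10. PC14 replicate 2 lay among the virgins, and the other 14 dams were below all of them. The difference there was -1.21 ± 0.17 on the log2 scale, 2.31-fold lower in dams (edgeR adjusted p = 0.00059). In the hypothalamus Arc ran from 17.4 to 25.2 CPM in dams, with a median of 19.8 CPM, against 18.5, 23.8 and 24.6 CPM in virgins, and in the cerebellum from 27.5 to 36.5 CPM in dams, with a median of 32.5 CPM, against 31.8, 36.7 and 29.9 CPM in virgins. The groups overlapped in both regions. The log2 differences were -0.17 ± 0.078 in the hypothalamus (edgeR adjusted p = 0.24) and 0.0041 ± 0.067 in the cerebellum (0.97), and neither passed.

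**Figure D3:**
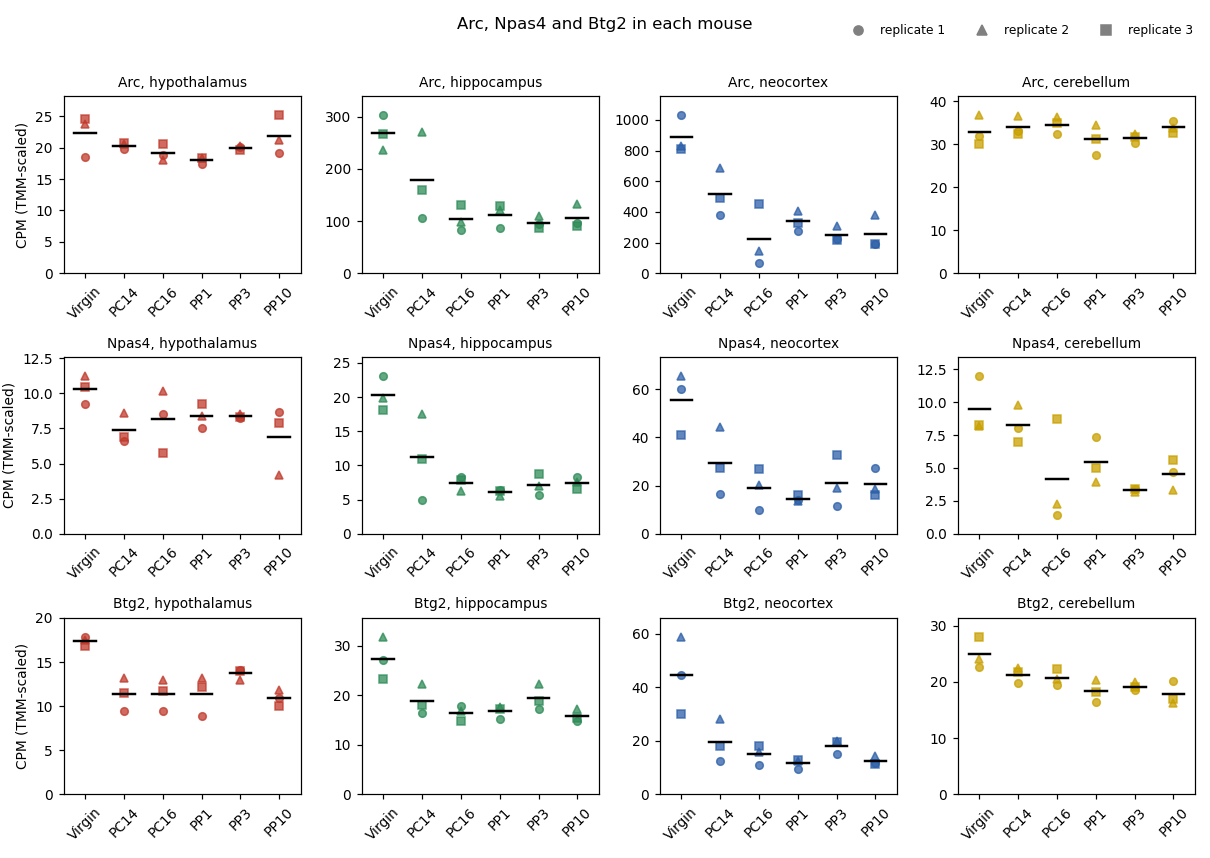
TMM-scaled counts (CPM) of Arc, Npas4 and Btg2 in each mouse by stage, from virgin to PP10, in the 4 regions. Marker shapes are replicates 1 to 3 of a stage and black bars are stage means. In the neocortex the Arc values of the 3 virgins, 1030.2, 829 and 809 CPM, lie above those of all 15 dams.

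Homer1 encodes a postsynaptic scaffold, whose short activity-induced form competes with the long forms. Its gene-level counts did not pass the test of dams against virgins in any region. In the neocortex Homer1 stood at 228, 161 and 198 CPM in virgins, 307, 172 and 193 CPM at PC14, 177, 189 and 246 CPM at PC16, 325, 268 and 264 CPM at PP1, 265, 221 and 232 CPM at PP3 and 226, 222 and 303 CPM at PP10. The highest values were those of PP1 replicate 1 and PC14 replicate 1, and dams and virgins overlapped. The log2 difference of 0.29 ± 0.13 did not pass (edgeR adjusted p = 0.18), except in the fit with no filter on low values, where it was 0.30 (adjusted p = 2.2e-15). The difference itself was thus almost the same in that fit, which also added neocortex calls in other tests. Why its p was so much smaller was not tested, so it is not taken as a call. In the hippocampus Homer1 ran from 64.5 to 97.5 CPM in dams, with a median of 79.6 CPM, against 90.5, 65.8 and 91.0 CPM in virgins, and the log2 difference was -0.056 ± 0.087 (edgeR adjusted p = 0.76). In the hypothalamus it ran from 14.5 to 20.4 CPM in dams, with a median of 17.2 CPM, against 16.8, 15.4 and 18.3 CPM in virgins, with a log2 difference of 0.032 ± 0.070 (edgeR adjusted p = 0.85). The groups overlapped in both. In the cerebellum Homer1 ran from 21.4 to 33.9 CPM in dams, with a median of 25.3 CPM, against 17.3, 18.0 and 29.8 CPM in virgins. Virgin O was as high as the upper dams while virgins B and M were below every dam. The log2 difference was 0.31 ± 0.14 (edgeR adjusted p = 0.10), and without virgin O it was 0.60 (adjusted p = 0.00033). Without virgin O 7451 of the 13817 genes tested in the cerebellum were called as well.

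Bdnf encodes the neurotrophin that binds TrkB, and it moved in opposite directions in different regions. In the hypothalamus it stood at 17.4, 23.1 and 26.9 CPM in virgins, 28.5, 30.4 and 34.0 CPM at PC14, 27.0, 29.7 and 29.1 CPM at PC16, 26.7, 29.0 and 32.9 CPM at PP1, 27.5, 28.8 and 29.95 CPM at PP3 and 26.9, 28.5 and 27.7 CPM at PP10. Virgin B was the lowest library of all 18, and 14 of the 15 dams were above every virgin. The log2 difference was 0.38 ± 0.091 (SE), 1.30-fold higher in dams, and passed (edgeR adjusted p = 0.024). It was 0.22 without virgin B (adjusted p = 0.20) and 0.40 without virgin M (0.078), so the call needed both. In the hippocampus Bdnf stood at 56.8, 46.4 and 54.5 CPM in virgins, 43.0, 46.5 and 43.7 CPM at PC14, 43.7, 43.1 and 40.7 CPM at PC16, 42.5, 44.1 and 40.7 CPM at PP1, 43.4, 50.7 and 45.9 CPM at PP3 and 39.1, 40.3 and 45.4 CPM at PP10. There 13 of the 15 dams were below all virgins. The log2 difference of -0.28 ± 0.056, 1.21-fold lower in dams, passed with all libraries (edgeR adjusted p = 0.0088) but not without virgin B (0.14) or virgin O (0.073). In the cerebellum Bdnf ran from 12.2 to 22.8 CPM in dams, with a median of 17.7 CPM, against 19.5, 21.3 and 24.6 CPM in virgins, with 11 dams below all virgins. The log2 difference of -0.36 ± 0.11 passed (edgeR adjusted p = 0.027), and it did not pass without virgin B (0.084), M (0.11) or O (0.072). In the neocortex it ran from 31.5 to 54.0 CPM in dams, with a median of 39.3 CPM, against 48.0, 40.04 and 40.8 CPM in virgins. The groups overlapped fully there, with a log2 difference of -0.044 ± 0.082 (edgeR adjusted p = 0.80).

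Nptx2, also known as Narp, is secreted and gathers AMPA receptors at excitatory synapses on interneurons. No region gave a call for it. Neocortex levels ran from 74.0 to 126 CPM in dams, with a median of 106 CPM, against 116, 98.7 and 101 CPM in virgins, and the log2 difference was 0.020 ± 0.10 (edgeR adjusted p = 0.94). In the hypothalamus Nptx2 ran from 58.4 to 79.0 CPM in dams, with a median of 67.0 CPM, against 88.2, 60.3 and 55.5 CPM in virgins. Virgin B was the highest of the 18 libraries there, the other virgins lay among or below the dams, and the log2 difference was -0.015 ± 0.094 (edgeR adjusted p = 0.95). In the hippocampus it ran from 30.5 to 40.7 CPM in dams, with a median of 35.7 CPM, against 42.8, 30.8 and 41.2 CPM in virgins. Virgins B and O were above all dams and virgin M was among the lowest libraries. With all libraries the log2 difference was -0.13 ± 0.082 (edgeR adjusted p = 0.37), and without virgin M it was -0.26 (adjusted p = 0.041). In the cerebellum, where Nptx2 was not tested, it ran from 0.915 to 2.60 CPM in dams, with a median of 1.33 CPM, against 1.39, 1.53 and 0.858 CPM in virgins.

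**Figure D4:**
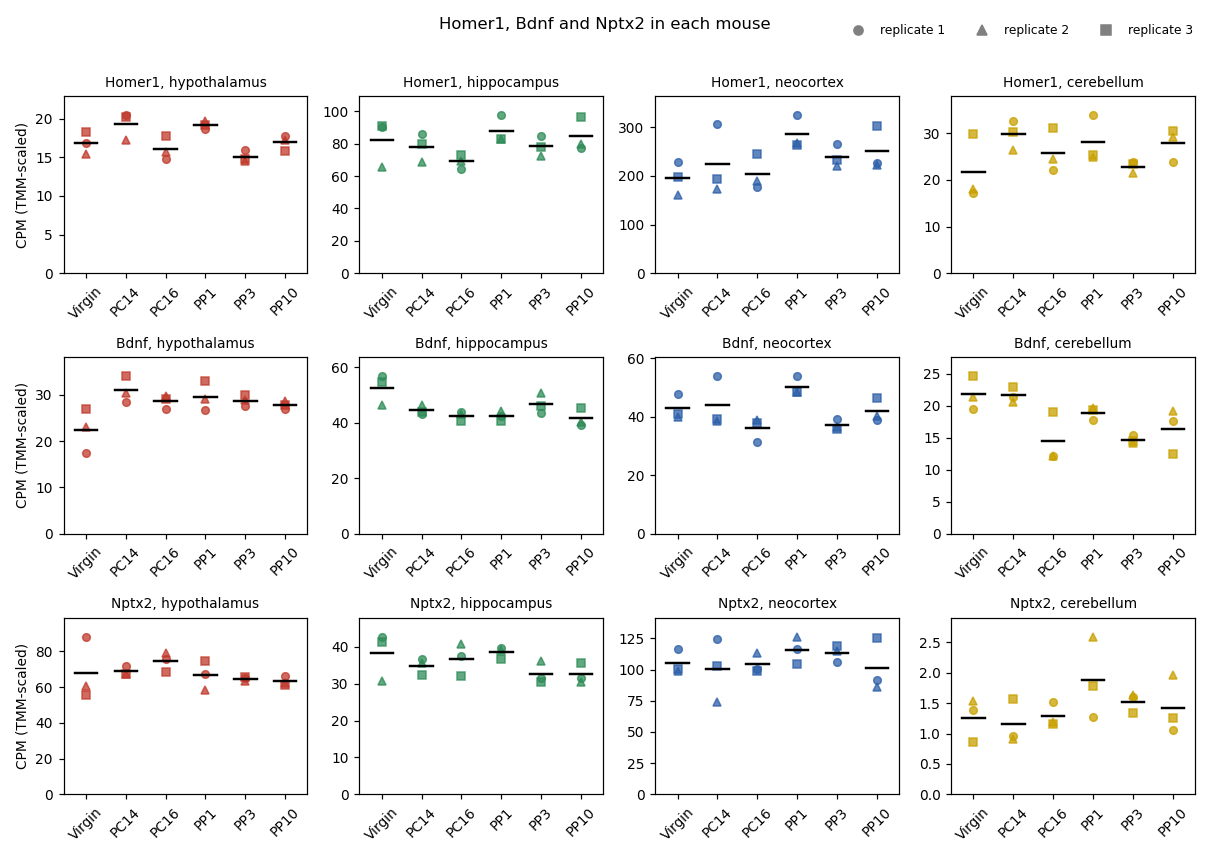
TMM-scaled counts (CPM) of Homer1, Bdnf and Nptx2 in each mouse by stage, from virgin to PP10, in the 4 regions, with marker shapes for replicates 1 to 3 and black bars for stage means. In the hypothalamus 14 of the 15 dams have more Bdnf than every virgin, and in the hippocampus 13 of 15 have less.

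Each dam stage was also set against the same virgins. In the neocortex 1 of 6 members was called at PC14 (Btg2), 3 each at PC16, PP3 and PP10 (Arc, Npas4 and Btg2), and 4 at PP1, where Homer1 joined them as a higher member. Of all genes tested there, 0.0441% (PC14), 2.15% (PC16), 12.3% (PP1), 7.88% (PP3) and 1.96% (PP10) were called. The Arc difference was -0.78 ± 0.37 (SE) on the log2 scale for PC14, -2.01 ± 0.39 for PC16 (-3.05 without PC16 replicate 3), -1.40 ± 0.38 for PP1, -1.83 ± 0.38 for PP3 and -1.80 ± 0.38 for PP10. Btg2 was lowest relative to virgins at PP1, at -1.95 ± 0.24 (edgeR adjusted p = 6.4e-05), and so was Npas4, at -1.92 ± 0.32 (0.00072). Homer1 was 1.46-fold higher at PP1 (log2 difference 0.55 ± 0.16, adjusted p = 0.032). DESeq2 ended the calls of Btg2 at PC14 (adjusted p = 0.063), Arc (0.079) and Homer1 (0.12) at PP1 and Npas4 at PP10 (0.062). Calls that ended when 1 library was left out, with the adjusted p then reached, were Btg2 at PC14 without PC14 replicate 1 or 3, virgin B or M (0.085 to 0.27), Arc at PC16 without PC16 replicate 2 (0.0504), Npas4 at PC16 without PC16 replicate 1 (0.075), Homer1 at PP1 without PP1 replicate 1, virgin M or O (0.084 to 0.16), Arc at PP1 without PP1 replicate 1 or 3, virgin B (0.0501 to 0.097), Npas4 at PP3 without PP3 replicate 1 (0.051), Arc at PP10 without PP10 replicate 1 or 3, virgin B (0.055 to 0.10) and Npas4 at PP10 without PP10 replicate 2 or 3, virgin M (0.061 to 0.098). Btg2 at PC16, PP1, PP3 and PP10, Npas4 at PP1 and Arc at PP3 held throughout.

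For the hippocampus no member was called at PC14 by edgeR's quasi-likelihood test, although 4 had an unadjusted p under 0.05 and DESeq2 called 1 (Btg2). At PC16, PP1 and PP10 the same 4 members (Arc, Npas4, Btg2 and Bdnf) were called, and at PP3 2 were (Arc and Npas4), all lower in dams. DESeq2 called Btg2 at PP3 too (adjusted p = 0.017). The shares of all genes called were 0.144% (PC14), 4.02% (PC16), 2.38% (PP1), 0.804% (PP3) and 4.20% (PP10). At PC14 the log2 differences were -0.59 ± 0.23 for Arc, -0.86 ± 0.24 for Npas4 and -0.53 ± 0.12 for Btg2. These became calls without PC14 replicate 2, the mouse with Arc at 270.4 CPM (adjusted p = 0.047 for Arc, 0.031 for Npas4 and 0.043 for Btg2). Npas4 was 3.36-fold lower at PP1 (edgeR adjusted p = 0.0022) and Arc 2.77-fold lower at PP3 (0.0054). Calls ended by leaving out 1 library were Arc at PC16 without PC16 replicate 1 (0.057), Bdnf at PC16 without PC16 replicate 1 or 2 or 3, virgin B or O (0.059 to 0.16), Arc at PP1 without PP1 replicate 1, virgin B (0.054 to 0.057), Bdnf at PP1 without PP1 replicate 1 or 2 or 3, virgin B or O (0.062 to 0.17), Arc at PP3 without PP3 replicate 3 (0.059), Arc at PP10 without PP10 replicate 1 (0.058) and Bdnf at PP10 without PP10 replicate 1 or 2, virgin B or O (0.066 to 0.11). Those of Npas4 at all 4 stages from PC16 on, and of Btg2 at PC16, PP1 and PP10, held. Leaving out 1 library also made calls of Btg2 at PC14 without PP3 replicate 2 (0.037) and at PP3 without PC14 replicate 2 (0.046) or PP3 replicate 2 (0.019), and without virgin M of Bdnf at PC14 (0.037), Homer1 at PC16 (0.030) and Nptx2 at PP3 (0.049) and PP10 (0.031).

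In the hypothalamus Btg2 was the 1 member called at PC14, PC16 and PP10, and no member was called at PP1 or PP3 by edgeR's quasi-likelihood test. At PP1 3 members had an unadjusted p under 0.05 and DESeq2 called 1 (Bdnf), and at PP3 the counts were 2 and 0. Genes called over the whole table were 1.25% (PC14), 1.84% (PC16), 0.681% (PP1), 0.674% (PP3) and 5.96% (PP10). The log2 differences of Btg2 were -0.61 ± 0.14 at PC14, -0.62 ± 0.14 at PC16, -0.62 ± 0.14 at PP1 (edgeR adjusted p = 0.0501), -0.34 ± 0.14 at PP3 and -0.67 ± 0.14 at PP10. Its calls ended as Btg2 at PC14 without PC14 replicate 1 or 2 or 3, PP3 replicate 1 or 2 or 3, PP10 replicate 1, virgin B or M (0.051 to 0.12), Btg2 at PC16 without PC16 replicate 1 or 3, virgin B or M (0.072 to 0.16) and Btg2 at PP10 without PP10 replicate 3 (0.070), and at PP1 it became a call without PC14 replicate 1 (0.037) or 3 (0.048) or PC16 replicate 1 (0.045). Bdnf was 1.39-fold higher at PC14 than in virgins without passing (edgeR adjusted p = 0.051), and it passed with DESeq2 (0.013), with TMM factors over 72 libraries (0.045) and with no filter (0.020). Without virgin O, the virgin with the most Bdnf, it passed at all 5 stages, PC14 (0.0061), PC16 (0.024), PP1 (0.023), PP3 (0.035) and PP10 (0.023), and at PC14 also without PC14 replicate 1 (0.049) or PP1 replicate 3 (0.045).

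In the cerebellum 0 of 5 members were called at PC14 by edgeR's quasi-likelihood test (2 at an unadjusted p under 0.05 and 0 by DESeq2), 2 at PC16 (Npas4 and Bdnf), 1 at PP1 (Btg2), 3 at PP3 (Npas4, Btg2 and Bdnf) and 1 at PP10 (Btg2), all lower in dams. Over all genes 0.152% (PC14), 10.4% (PC16), 8.79% (PP1), 14.9% (PP3) and 15.8% (PP10) were called. The call of Npas4 at PC16 (log2 difference -1.24) was not made by DESeq2 (adjusted p = 0.080), and the difference was -2.35 without PC16 replicate 3 and -0.80 without PC16 replicate 1. Npas4 was low in this region, with 18 to 138 counts per library. It was under 1 FPKM in PC16 replicates 1 and 2 (0.434 and 0.708) and in all 3 PP3 mice (0.927, 0.953 and 0.941). Npas4 was 2.85-fold lower at PP3 (log2 difference -1.51 ± 0.39), Bdnf 1.51-fold lower at PC16 (-0.60 ± 0.16) and Btg2 1.40-fold lower at PP10 (-0.49 ± 0.10). None of these 7 calls held with every library left out in turn, and they ended as Npas4 at PC16 without PC14 replicate 1 or 2 or 3, PC16 replicate 1 or 2, PP1 replicate 1 or 2 or 3, PP3 replicate 1 or 2 or 3, PP10 replicate 1 or 2 or 3, virgin B or M (0.052 to 0.22), Bdnf at PC16 without PC16 replicate 1 or 2, virgin B or M (0.087 to 0.13), Btg2 at PP1 without PP1 replicate 1 or 3, virgin M (0.069 to 0.11), Btg2 at PP3 without PP3 replicate 1 or 2 or 3, virgin B or M (0.058 to 0.093), Npas4 at PP3 without PP3 replicate 2 or 3, virgin B or M (0.078 to 0.12), Bdnf at PP3 without PP3 replicate 2 or 3, virgin B or M (0.070 to 0.097) and Btg2 at PP10 without PP10 replicate 3, virgin M (0.053 to 0.057). Without virgin O Homer1 became a call in the other direction at all 5 stages, PC14 (0.00022), PC16 (0.0051), PP1 (0.00088), PP3 (0.045) and PP10 (0.00069). A call was common in that setting, where 7451 of the 13817 genes tested were called for all dams against virgins. At PP10 Npas4 passed without PC16 replicate 1 (0.039) or 3 (0.015) or virgin O (0.013), and without PC16 replicate 3 Bdnf passed at PP10 (0.036) and Npas4 at PP1 (0.044). Over the 4 regions the stages gave 38 calls of members, of which 13 held whichever single library was left out.

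Postpartum dams (PP1, PP3 and PP10) were also set against pregnant ones (PC14 and PC16). By edgeR's quasi-likelihood test 0 members were called in any region, where 1.74% of all genes were called in the neocortex, 0.323% in the hippocampus, 0.243% in the hypothalamus and 0.174% in the cerebellum. DESeq2 called 0 as well. At an unadjusted p under 0.05 there were 3 in the hippocampus (Arc, Npas4 and Homer1), 1 in the neocortex (Homer1), 1 in the cerebellum (Btg2) and 0 in the hypothalamus. In the hippocampus the log2 difference of PP over PC was -0.38 ± 0.16 for Arc, -0.42 ± 0.18 for Npas4 and 0.18 ± 0.073 for Homer1. Homer1 in the neocortex was 0.27 ± 0.11 (edgeR adjusted p = 0.20) and without PC14 replicate 1, the pregnant mouse with the most Homer1, 0.42 (adjusted p = 0.0100). A test for any difference among the 5 dam stages called 1 member, Bdnf in the neocortex (edgeR adjusted p = 0.043). That call ended without any 1 of 9 libraries, namely PC16 replicate 1, PP1 replicate 1, 2 or 3, PP3 replicate 1, 2 or 3 and PP10 replicate 1 or 2 (adjusted p = 0.054 to 0.17). Calls were made of Arc in the neocortex without PC16 replicate 3 (0.00045), Homer1 in the neocortex without PC14 replicate 1 (0.031) and Npas4 in the cerebellum without PC16 replicate 3 (0.018). 3.26% of all genes were called in it there, 0.129% in the hippocampus, 0.0556% in the hypothalamus and 0.0362% in the cerebellum. Bdnf stood there at 54.0, 38.6 and 39.4 CPM at PC14, 31.5, 39.0 and 38.02 CPM at PC16, 53.9, 48.5 and 48.5 CPM at PP1, 39.3, 36.5 and 35.7 CPM at PP3 and 38.9, 40.4 and 46.4 CPM at PP10. All 3 PP1 mice were above all mice of PC16, PP3 and PP10, and PC14 replicate 1 was as high as the highest of them. In the other regions 0 members were called in this test, with 2 in the hippocampus, 1 in the hypothalamus and 2 in the cerebellum at an unadjusted p under 0.05 and 0 by DESeq2.

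Whether the difference of dams from virgins varied among regions was tested over all 72 libraries. With all 4 regions, 3 of 6 members passed, where 36.6% of all genes did: Btg2 (edgeR adjusted p = 8.5e-06), Bdnf (0.00018) and Arc (0.00066). Arc missed it without virgin B (0.066). Npas4 was at 0.0504, Homer1 at 0.18 and Nptx2 at 0.71. With the mouse as a replicate block, which the design supports because each animal gave all 4 regions, Npas4 (0.0088) and Homer1 (0.015) passed too. Npas4 also passed without any 1 of PC14 replicate 1 or 2, PC16 replicate 1 or 3, PP3 replicate 3 or PP10 replicate 2, down to an adjusted p of 0.018. Tests without the cerebellum and between pairs of regions were added after the data were seen. Without the cerebellum 3 of 6 members passed, against 4.75% of all genes: Btg2 (0.00050), Bdnf (0.0037) and Arc (0.045). There Bdnf missed the threshold without virgin B (0.23), and Arc missed it without any 1 of 13 mice, among them all 3 virgins, with an adjusted p of up to 0.39. Npas4 (0.10) passed with the block (0.024) and without PC16 replicate 3 (0.040).

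Pair by pair, the difference of Btg2 in the neocortex was set apart from every other region, by -0.90 ± 0.18 on the log2 scale from the hippocampus (edgeR adjusted p = 0.0089), -0.99 ± 0.19 from the hypothalamus (0.0020) and -1.20 ± 0.19 from the cerebellum (1.8e-05). Arc fell further in the neocortex than in the cerebellum (by -1.57 ± 0.36, adjusted p = 0.0011) and the hypothalamus (-1.39 ± 0.37, 0.044), and further in the hippocampus than in the cerebellum (-1.22 ± 0.36, 0.0081). Neocortex and hippocampus were not told apart for Arc (-0.34 ± 0.31, 0.68). Bdnf differed between the hippocampus and the hypothalamus (-0.67 ± 0.13, 0.0013) and between the hypothalamus and the cerebellum (0.74 ± 0.15, 0.00020). Members called per pair were 1 of 6 for neocortex and hippocampus (0.860% of all genes), 2 for neocortex and hypothalamus (1.30%), 2 for neocortex and cerebellum (24.2%), 1 for hippocampus and hypothalamus (4.15%), 1 for hippocampus and cerebellum (29.4%) and 1 for hypothalamus and cerebellum (26.7%). With the block, Arc and Npas4 between hippocampus and hypothalamus (adjusted p = 0.021 and 0.032), Npas4 between neocortex and hypothalamus (0.033) and Homer1 between hippocampus and cerebellum (0.023) were added. Leaving out 1 mouse ended the calls of Btg2 between neocortex and hippocampus without virgin B or virgin M (0.066 to 0.16), Btg2 between neocortex and hypothalamus without virgin M (0.11), Arc between neocortex and hypothalamus without any 1 of 12 mice, among them all 3 virgins (0.052 to 0.30), Bdnf between hippocampus and hypothalamus without virgin B (0.17) and Arc between hippocampus and cerebellum without virgin B (0.13), and made calls of Npas4 between neocortex and hypothalamus without PC16 replicate 3 (0.047), Bdnf between neocortex and hypothalamus without virgin O (0.031), Bdnf between neocortex and cerebellum without PC16 replicate 3 (0.045), Arc between hippocampus and hypothalamus without PC16 replicate 3 (0.023), Homer1 between hippocampus and cerebellum without virgin O (0.035) and Btg2 between hippocampus and cerebellum without virgin O (0.039).

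Mice of 1 stage also differed among themselves, and some of that spread was shared between regions of a brain. Deviations of log2 CPM from the stage mean were correlated over the 18 mice for 36 relations (6 members and 6 pairs of regions), with 100000 permutations of mice within stages (two-sided) and Benjamini-Hochberg adjustment over the 36. Of these, 2 passed, both between hippocampus and neocortex. Arc had Pearson's r = 0.72 and Spearman's rho = 0.91 (permutation p = 0.00024 and 0.00029, adjusted 0.0043 and 0.0052), and r was 0.83 without the 2 mice farthest from the median in the hippocampus. Homer1 had Pearson's r = 0.84 and Spearman's rho = 0.83 (permutation p = 0.00013 and 0.00017, adjusted 0.0043 and 0.0052), and r without 2 mice was 0.83. Mice with more Arc or more Homer1 than their stage in the hippocampus thus tended to have more of it in the neocortex. Not every mouse did, as PP1 replicate 3 had Arc deviations of 0.21 in the hippocampus and -0.016 in the neocortex. On log2(FPKM + 1) Pearson's r was 0.72 for Arc and 0.64 for Homer1. The share of all genes with such a relation is not given here. Btg2 between hypothalamus and neocortex was next, with r = 0.70 (permutation p = 0.0051, adjusted 0.061), and did not pass.

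Within a region, 60 relations between members (15 pairs and 4 regions) were examined in the same way, and 6 passed by Pearson's r but 0 by Spearman's rho after adjustment, 8 of the 60 having an unadjusted permutation p for rho under 0.05. In the neocortex Homer1 went with Bdnf (r = 0.89, rho = 0.82, permutation p = 0.00061 and 0.0034, adjusted 0.037 and 0.098, r without 2 mice 0.81), and Btg2 went with Npas4 (r = 0.77, rho = 0.69, permutation p = 0.0027 and 0.0098, adjusted 0.041 and 0.098, r without 2 mice 0.78) and with Arc (r = 0.63, rho = 0.79, permutation p = 0.0025 and 0.00090, adjusted 0.041 and 0.054, r without 2 mice 0.64). In the hippocampus Homer1 ran against Btg2 (r = -0.81, rho = -0.73, permutation p = 0.0019 and 0.0067, adjusted 0.041 and 0.098, r without 2 mice -0.81) and Bdnf went with Nptx2 (r = 0.83, rho = 0.74, permutation p = 0.0046 and 0.0081, adjusted 0.045 and 0.098, r without 2 mice 0.74). In the hypothalamus Arc ran against Nptx2 (r = -0.78, rho = -0.78, permutation p = 0.0042 and 0.0060, adjusted 0.045 and 0.098, r without 2 mice -0.72). By Pearson's r, Homer1 thus varied with Bdnf in the neocortex, and Btg2 with Npas4 and with Arc. Arc and Npas4, which fell there like Btg2, did not pass as a pair (r = 0.55, adjusted permutation p = 0.48, r without 2 mice 0.25). The share of all pairs of genes with such a relation is not given here. Both genes of a pair come from the same library, so depth and composition are shared.

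**Figure D5:**
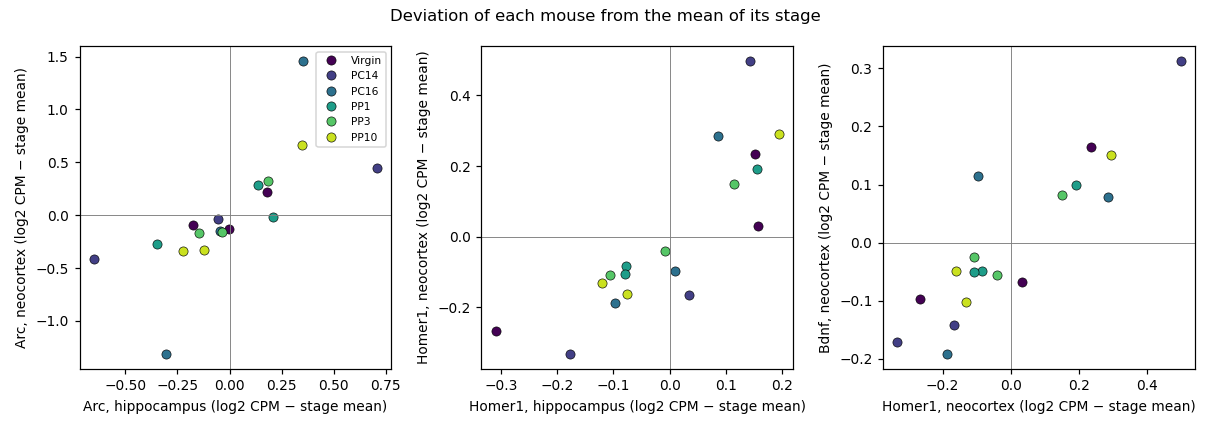
Deviations of log2 CPM from the mean of the mouse's stage, 1 point per mouse (18 mice), for Arc in hippocampus and neocortex, Homer1 in hippocampus and neocortex, and Homer1 against Bdnf in the neocortex. Pearson's r is 0.72, 0.84 and 0.89.

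As a description, the members were compared with every gene that passed the FPKM rule in all 4 regions (12628 genes) over the 72 libraries, with log2 CPM centred within each region, so that differences between stages and between mice both count. Arc was most like Junb (r = 0.87), an AP-1 subunit, then Ier2 (0.82) and Trib1 (0.79). Npas4 was most like Dusp1 (0.78), a phosphatase of MAP kinases, then the nuclear receptor gene Nr4a1 (0.77) and Ier2 (0.76). Btg2 was most like Ccn1 (0.83), a secreted matrix protein, then Ier2 (0.80) and Junb (0.79). The others had different neighbours. Homer1 was most like Spred1 (0.82), an inhibitor of Ras signalling, Arih1 (0.73) and Usp31 (0.72), and Bdnf was most like Tmem198 (0.66), Nr4a2 (0.65) and Dusp3 (0.64). Nptx2 had the lowest values, with Camkv at 0.47, Atg3 at 0.46 and Tmem158 at 0.45. Its values include the cerebellum libraries, where it had 9 to 29 counts and missed the FPKM rule. How far these libraries lowered its r was not tested. Among the members themselves r was 0.68 for Arc and Btg2, 0.60 for Arc and Npas4, 0.68 for Npas4 and Btg2, and -0.11 for Arc and Homer1.

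Other genes of the same response moved in dams as well. This list and those below were chosen with earlier results of these data known, so their counts are no independent evidence. Of the early-response transcription factors listed (Fos, Jun, Egr, Nr4a and related genes), 13 of 15 tested were lower in neocortex of dams, 10 of 15 in hippocampus, 10 of 13 in cerebellum and 9 of 15 in hypothalamus, where 1 was also higher. The shares of all genes lower in dams were 4.18%, 3.92%, 15.6% and 1.61% in those regions. Their median log2 difference was -0.85 (neocortex), -0.62 (hippocampus), -0.72 (cerebellum) and -0.56 (hypothalamus), against medians over all genes of -0.0029, 0.0023, -6.9e-06 and -0.0049 in those regions. Fos, an AP-1 subunit, averaged 42.1 ± 24.9 CPM in dams and 120.1 ± 13.3 CPM in virgins in the neocortex (SD, n = 15 and 3, log2 difference -1.65) and 23.5 ± 18.2 CPM in dams and 77.3 ± 13.6 CPM in virgins in the cerebellum (-1.97). Egr2 averaged 2.83 ± 1.85 CPM in dams and 9.96 ± 3.12 CPM in virgins in the hippocampus (-2.02), the furthest of the list there, and Nr4a1 averaged 18.7 ± 5.10 CPM in dams and 37.5 ± 3.56 CPM in virgins in the hypothalamus (-1.03). In the neocortex and the hippocampus Arc, Npas4 and Btg2 were each further below virgins than the median of that list.

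Of the later or non-factor activity-regulated genes, 9 of 19 were lower and 1 higher in dams in the neocortex, 9 of 19 were lower in the hippocampus, 9 of 17 were lower in the cerebellum, and 5 of 17 were lower and 1 higher in the hypothalamus. All genes called in either direction came to 6.99%, 6.14%, 29.5% and 4.74%. The medians of the list were -0.27 (neocortex), -0.25 (hippocampus), -0.28 (cerebellum) and -0.074 (hypothalamus). Ccn1 averaged 5.42 ± 3.61 CPM in dams and 24.9 ± 7.32 CPM in virgins in the neocortex (log2 difference -2.28), Dusp1 averaged 44.8 ± 17.6 CPM in dams and 116 ± 16.8 CPM in virgins there (-1.42) and 45.4 ± 17.0 CPM in dams and 107 ± 9.01 CPM in virgins in the cerebellum (-1.29), and the kinase gene Sik1 averaged 15.99 ± 3.04 CPM in dams and 23.3 ± 3.50 CPM in virgins in the hippocampus (-0.55). The higher gene of the hypothalamus was Nrn1, which encodes the synaptic protein neuritin, at 42.1 ± 3.13 CPM in dams and 25.5 ± 12.4 CPM in virgins (0.73, edgeR adjusted p = 0.027). It was thus on the same side as Bdnf in that region. The virgins spread more widely than the dams for Nrn1, and the Bdnf call ended without virgin B or M. Whether the Nrn1 call held then is not given here.

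The binding partners and receptors of the members were mostly not called. By edgeR's quasi-likelihood test 0 of 21 passed in the hypothalamus (4 at an unadjusted p under 0.05, and 2 by DESeq2), 1 of 20 in the hippocampus, and 1 of 20 in the neocortex, while in the cerebellum 9 of 21 were higher and 1 lower against the 29.5% of all genes called there. The hippocampal gene was Gria2, an AMPA receptor subunit on which Arc and Nptx2 act, at 490.0 ± 20.6 CPM in dams and 564 ± 26.0 CPM in virgins (log2 difference -0.20, edgeR adjusted p = 0.0034), and the neocortical one was the kinase gene Camk2a (0.093, 0.024). In the cerebellum the Homer1 partners Shank1 (0.54), Shank2 (0.46) and Itpr1 (0.33) were higher on the log2 scale. For each of them the virgins spread more widely than the dams. Shank1 averaged 420.83 ± 20.341 CPM in dams and 288.19 ± 88.307 CPM in virgins. Shank2 averaged 320.02 ± 11.585 and 233.3 ± 65.024 CPM, and Itpr1 2172.7 ± 130.71 and 1727.7 ± 391.57 CPM. Over all genes the cerebellum calls fell from 4070 to 194 without virgin B and 239 without virgin M. Whether the calls of these partners held then is not given here. The medians over the list of binding partners and receptors were -0.0015 (neocortex), -0.030 (hippocampus), 0.15 (cerebellum) and 0.0056 (hypothalamus). Among the paralogues, Tob2, of the same family as Btg2, was lower in dams in all 4 regions, with log2 differences of -0.52 (neocortex), -0.28 (hippocampus), -0.39 (cerebellum) and -0.48 (hypothalamus). Tob1 was lower in the hypothalamus (-0.29) and the neocortex (-0.21). Npas2, a clock factor of the same family as Npas4, was higher in the hypothalamus (0.45) and the cerebellum (0.46), and Homer2 was higher in the cerebellum (0.39). Of the paralogues tested, 2 of 11 were lower and 0 higher in the neocortex, 1 of 12 and 0 in the hippocampus, 1 of 10 and 3 in the cerebellum, and 2 of 10 and 1 in the hypothalamus, beside the same shares of all genes (6.99%, 6.14%, 29.5% and 4.74%), and with medians of -0.035 (neocortex), -0.081 (hippocampus), -0.10 (cerebellum) and -0.054 (hypothalamus).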

How the data were processed

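RNA-seq libraries from 4 brain regions of 18 mice were used, 72 in all, with groups taken from the stage and region in the sample labels. Per the study's methods and processing notes, the authors trimmed adaptors with Trimmomatic 0.32, kept reads of at least 50 bases and mapped them with TopHat 2.0.8 to the mouse genome of Ensembl release 75. Total RNA input was 5 µg except for 1 µg of hypothalamus RNA. The deposited counts are whole reads per gene that the authors made with easyRNASeq, not normalized. The deposited FPKM values were made by the authors with Cufflinks 2.1.1 and its effective length correction off, and 13828 blank cells were read as 0.

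Counts were fitted per region by the quasi-likelihood F test of edgeR 4.0.16 under R 4.3.3, a coefficient standing for each stage and TMM factors taken over 18 libraries, and p-values were adjusted by Benjamini-Hochberg over all genes that met the FPKM rule (1 FPKM or more in every mouse of some stage), which left 14385 (hypothalamus), 13932 (hippocampus), 13599 (neocortex) and 13817 (cerebellum). Levels between regions and the differences of dams between regions came from 1 fit of 72 libraries over 15348 genes. CPM are counts relative to library size, scaled by TMM within a region, and deviations used log2 CPM with a prior count of 1, computed from the deposited counts. An SE is the log2 difference divided by the square root of its F. Alternatives were DESeq2 1.42.0, its size factors, TMM over 72 libraries, no filter, filterByExpr, edgeR's exact test with only the 6 libraries of the stages compared, limma 3.58.1 on log2(FPKM + 1), the mouse as a block, and each library or mouse left out. The fits were tested on simulated counts. Of 72 pairs of replicates 0 were identical, with a chi-square per degree of freedom of 1.41 to 24.5.

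Each mouse gave all 4 regions, so the mouse pairs the libraries between regions by design. Deviations of the 108 pairs of libraries of a mouse had r of -0.25 to 0.24 over 11562 genes, with a median of 0.086 and 39 pairs over 0.1. The 6 members, the gene lists and the marker lists were chosen with earlier results of these data known, so a list's count is no independent evidence of its direction. Named genes are the members, up to 4 genes per list and region with the largest log2 difference of dams from virgins, and the 3 genes most like each member. Of 39179 gene IDs, 37607 matched a symbol in GENCODE M21. Promoter sequences are from RefSeq, whose table held windows for 4 members. Arc and Nptx2 windows were not used here.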

Additional observations from a re-analysis of the deposited data

Results flagged for a closer look

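The difference of dams from virgins varied among the 4 regions for 3 members by the test of that difference over 72 libraries. For Btg2 (edgeR adjusted p = 8.5e-06) the log2 difference was -1.57 (neocortex), -0.65 (hippocampus), -0.57 (hypothalamus) and -0.36 (cerebellum), so the sign was shared and the size was not. For Arc (edgeR adjusted p = 0.00066) it was -1.57 (neocortex), -1.21 (hippocampus), -0.17 (hypothalamus) and 0.0041 (cerebellum). For Bdnf (edgeR adjusted p = 0.00018) it was 0.38 (hypothalamus), -0.28 (hippocampus), -0.044 (neocortex) and -0.36 (cerebellum), with opposite signs in regions of the same mice. Among all genes tested 36.6% passed this test.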

How the results depend on the processing

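Of 5518 alternative values for single members, 5266 kept their side of the threshold, of which 135 were uncalled and changed sign, 172 dropped below it, 80 passed it, and 0 called values changed sign. The comparisons with dams rest on 3 virgins. Without virgins B and M the members called in dams against virgins were 0 for hypothalamus (2 with all libraries), 0 for hippocampus (4), 1 for neocortex (3) and 1 for cerebellum (3), and the stage calls were 0 (3), 0 (14), 1 (14) and 2 (7), where the alternative for the stages was chosen after seeing the data. With 1 virgin left the log2 differences of Arc in the hippocampus (-1.20 against -1.21 with all libraries) and Btg2 in the hypothalamus (-0.52 against -0.57) moved little. Others moved more. In the neocortex Btg2 was at -1.004 against -1.57 and Npas4 at -1.01 against -1.45. Btg2 was at -0.41 against -0.65 in the hippocampus and -0.53 against -0.36 in the cerebellum. Bdnf in the hypothalamus was at 0.12 against 0.38. Stage calls in the hypothalamus were 5 with TMM factors over 72 libraries, with no filter and with DESeq2's test, and in the cerebellum they were 3 with edgeR's exact test with 6 libraries. With no filter, PP against PC in the neocortex gave 4 calls in place of 0, and the test among dam stages gave 6 in place of 1 in the neocortex and 1 in place of 0 in the hippocampus. The cause was not tested. With the mouse as a replicate block, 5 members in place of 3 varied among regions, 32 in place of 31 pairs of regions differed in level, and the calls it changed are given beside the results; it changed no other call. Leaving out 1 library gave 1 to 2 (hypothalamus), 3 to 5 (hippocampus), 3 (neocortex) and 1 to 3 (cerebellum) calls of dams, and 1 to 8, 10 to 18, 11 to 14 and 0 to 13 stage calls. It gave 0 to 1 calls of PP against PC and 0 to 2 among dam stages in the neocortex, and 0 to 1 among dam stages in the cerebellum. Leaving out 1 mouse gave 31 to 32 pairs of regions, 2 to 4 members that varied among 4 regions and 1 to 4 among 3. Depth limits Nptx2 in the cerebellum, at 9 to 29 counts per library, and Npas4 was low there too, at 18 to 138.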
